A study of Mus musculus with 12 samples.

Results

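miR-9 was followed together with miR-124 and miR-128, microRNAs best known from the nervous system, in extracellular vesicles that mouse mesenchymal stem cells from bone marrow release in culture. The members were the table entries mmu-miR-9-5p, mmu-miR-9-3p, mmu-miR-124-3p and mmu-miR-128-3p, 4 of 1978 annotated miRNAs. They were taken by name, but the group was chosen by the counts of miR-9-5p in these same libraries, which differ widely between groups, so the members' levels and folds are given as a description without a test. Of the 4, miR-9-5p and miR-128-3p passed the filter on low counts and entered the fit. The 12 libraries formed 4 groups named PLL, NY, aFM and DZ, with replicates A, B and C in each. All 12 came from bone marrow mesenchymal stem cells of SPF-grade C57BL/6 mice and all, DZ included, carry the treatment label Antigenintervention. The design text describes 48 h of exposure to 2 µg/ml of a hydatid antigen preparation, named ESPs, HCF or pLL, before vesicles were collected by ultracentrifugation. PLL shares its name with pLL, the labels do not explain NY, aFM or DZ, and they name no unstimulated group, so DZ is used below as a common point of comparison only. Age, sex and whether replicates came from separate cultures are not in the labels, and the spread between libraries may therefore be technical.

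A microRNA is cut from a hairpin precursor as 2 arms, called 5p and 3p, and the arm that is loaded into an Argonaute protein pairs through its seed, bases 2 to 8, with messenger RNAs that it represses. In vertebrate brain miR-9 and miR-124 accumulate as progenitors become neurons, where both arms of miR-9 are used and miR-124 holds down transcripts of other cell types. miR-128 is also high in neurons, but it is made in many tissues from introns of protein-coding genes. Outside the brain, human monocytes and neutrophils raise miR-9 after Toll-like receptor stimulation, and NFKB1 is a known target there.

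The mature sequences are shown because a count can be assigned to a miRNA but not to one of its gene copies. They are from RefSeq on GRCm38.p6, with the seed in capitals.
miR-9-5p: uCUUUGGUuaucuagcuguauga
miR-9-3p: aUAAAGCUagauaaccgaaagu
miR-128-3p: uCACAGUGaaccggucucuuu
miR-27b-3p: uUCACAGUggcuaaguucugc
miR-27a-3p: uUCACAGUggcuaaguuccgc
No other annotated miRNA with a reference sequence had the seed of either miR-9 arm or of miR-128-3p. The seeds of miR-27a-3p and miR-27b-3p share a run of 6 bases with that of miR-128-3p, and both were among the 30 most abundant miRNAs of the table. The 3 miR-9 hairpins follow, with both mature arms in capitals.
Mir9-1: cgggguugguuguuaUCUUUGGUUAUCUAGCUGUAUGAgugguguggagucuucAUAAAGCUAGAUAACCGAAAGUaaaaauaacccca
Mir9-2: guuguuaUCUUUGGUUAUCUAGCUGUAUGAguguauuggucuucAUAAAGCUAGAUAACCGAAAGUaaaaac
Mir9-3: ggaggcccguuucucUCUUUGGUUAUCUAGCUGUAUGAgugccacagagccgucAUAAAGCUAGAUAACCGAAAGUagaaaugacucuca
Mir9-1 lies at chr3:88215598-88215686, Mir9-2 at chr13:83738814-83738885 and Mir9-3 at chr7:79505264-79505353, each on the plus strand in GRCm38. The hairpins differ in the loop and the flanks and share both arms, so the levels below are sums over the 3 genes. In the GENCODE annotation Mir9-1 is intronic in the long noncoding RNA gene Gm3764 and Mir9-3 in Mir9-3hg, while Mir9-2 overlaps an exon of C130071C03Rik. miR-128-3p comes from Mir128-1, in an intron of R3hdm1 on chromosome 1, and from Mir128-2, in an intron of Arpp21 on chromosome 9, and miR-124-3p comes from Mir124a-1, Mir124a-2 and Mir124a-3. The complementary strand of the miR-9 genes is annotated as miR-9b, whose 3p arm is the reverse complement of the first 21 bases of miR-9-5p, and both miR-9b arms had 0 counts in all 12 libraries.

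miR-9-5p spanned the range from a handful of reads to the most abundant miRNA of a library. Levels are in CPM, taken relative to the annotated miRNA counts of a library after scaling by the trimmed mean of M-values (TMM). In PLL the libraries A, B and C held 3780, 4533 and 3888 counts, or 85597, 113851 and 123699.6 CPM. In NY they held 215, 231 and 247 counts, or 7127, 7168 and 8214 CPM. In aFM they held 817, 970 and 992 counts, or 34453, 35663 and 29976 CPM. In DZ they held 7, 9 and 1 counts, or 427, 512 and 37.9 CPM. The groups did not overlap: every PLL library was above every aFM library, every aFM library above every NY library and every NY library above every DZ library. DZ replicate C stood lowest, with its level resting on 1 count.

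**Figure D1:**
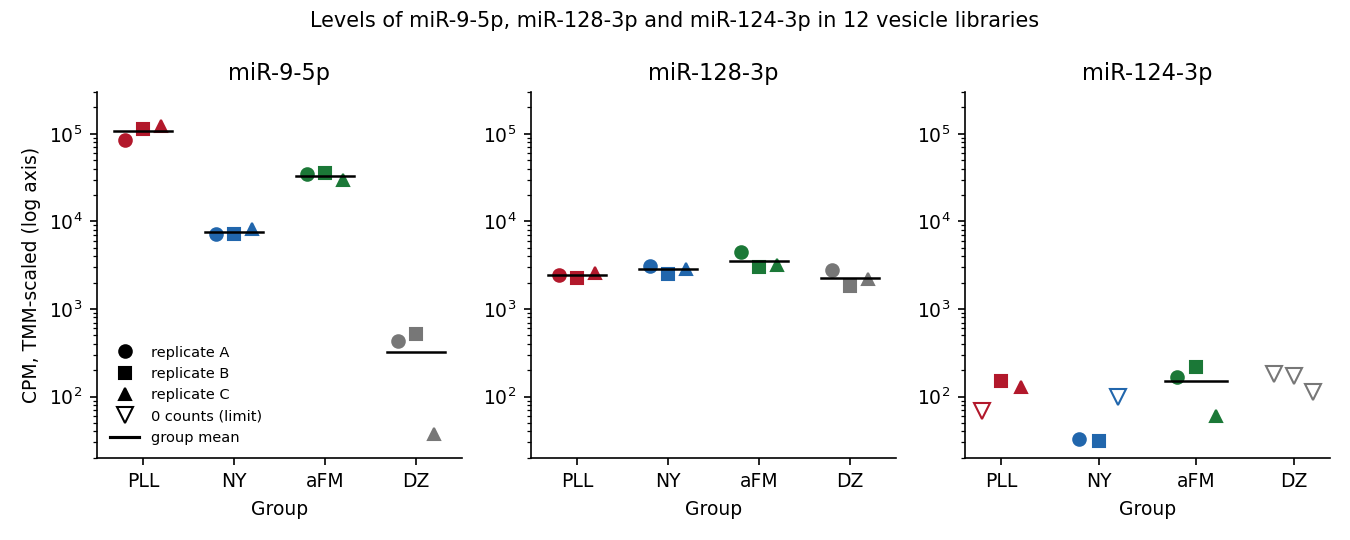
Levels of miR-9-5p, miR-128-3p and miR-124-3p in CPM on a log axis, by group, 1 symbol per replicate. Bars are group means, drawn where all 3 libraries had counts, and open triangles mark libraries with 0 counts at the limit that 3 counts would give. miR-9-5p separates the 4 groups, from 37.9 CPM in 1 DZ library to 123699.6 CPM in 1 PLL library, whereas miR-128-3p stays between 1821 and 4470.1 CPM.

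The group means were 107716 ± 19778.5 CPM in PLL, 7503 ± 616 in NY, 33364 ± 2996 in aFM and 326 ± 253 in DZ (SD, n = 3). The fitted log2 fold change of miR-9-5p against DZ was 8.45 ± 0.57 (SE) for PLL, 4.61 ± 0.50 for NY and 6.76 ± 0.54 for aFM, which share the DZ libraries. The fold over DZ was 351 for PLL, 24.4 for NY and 109 for aFM, and the DZ level in all 3 rests on 17 counts. Between the other groups the log2 fold change was 1.69 ± 0.40 for PLL against aFM, 3.84 ± 0.44 for PLL against NY and -2.15 ± 0.41 for NY against aFM. Without matching for counts, which affect this spread, replicates of miR-9-5p were closer than the median miRNA's except in DZ. Its coefficient of variation was 18.4% in PLL, 8.21% in NY, 8.98% in aFM and 77.6% in DZ, against a median over the tested miRNAs of 40.2% in PLL, 25.2% in NY, 23.5% in aFM and 36.8% in DZ. Its highest group mean was 331 times its lowest, against a median of 2.11 over the tested miRNAs and 76.9 for the next widest. Group means lay in the order DZ, NY, aFM, PLL for 9 of the tested miRNAs, and for 1 of these, miR-9-5p, neighbouring groups did not overlap. That order is miR-9-5p's own and separation in other orders was not counted, so nothing is read from this. In vesicle RNA more vesicles carrying a miRNA and more copies per vesicle cannot be told apart.

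As a share of annotated counts, miR-9-5p took 6.25%, 12.8% and 13.6% in PLL libraries A, B and C, with ranks 5, 1 and 1 among the miRNAs there. It took 0.714%, 0.658% and 0.874% in NY, 3.57%, 3.65% and 3.35% in aFM, and 0.0383%, 0.0511% and 0.00404% in DZ. Its rank ran from 20 to 24 in NY, from 11 to 12 in aFM and from 92 to 198 in DZ. PLL replicate A therefore lay below its sister libraries on this measure. Annotated miRNAs made up 60.7% of all counts in that library, against 29.2% and 41.7% in PLL replicates B and C, 18.6% to 30.6% in NY, 10.7% to 19.9% in aFM and 10.3% to 21.6% in DZ. The remaining counts belonged to predicted loci.

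When the share was taken over all counts, predicted loci included, miR-9-5p stood at 3.8%, 3.75% and 5.66% in PLL and at 0.155%, 0.202% and 0.163% in NY. It stood at 0.381%, 0.566% and 0.667% in aFM and at 0.00394%, 0.0105% and 0.000871% in DZ. The order of the groups was the same on both denominators, and on both the groups did not overlap. The distances changed. With predicted loci in the fit, PLL against DZ had a log2 fold change of 10.07 where the median annotated miRNA stood at 1.73. PLL against aFM had a log2 fold change of 3.51 where the median annotated miRNA stood at 2.13, and PLL against NY had 5.08 where the median stood at 1.49. Without PLL replicate A the log2 fold change of PLL against DZ was 8.58, and leaving out each library in turn gave 7.72 to 9.0. A measure free of library size led to the same order. Per count of miR-21a-5p, which is abundant in every library, there were 1.04, 1.33 and 1.26 counts of miR-9-5p in PLL, 0.0593, 0.0551 and 0.0776 in NY, 0.524, 0.455 and 0.438 in aFM, and 0.00492, 0.00436 and 0.000331 in DZ.

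**Figure D2:**
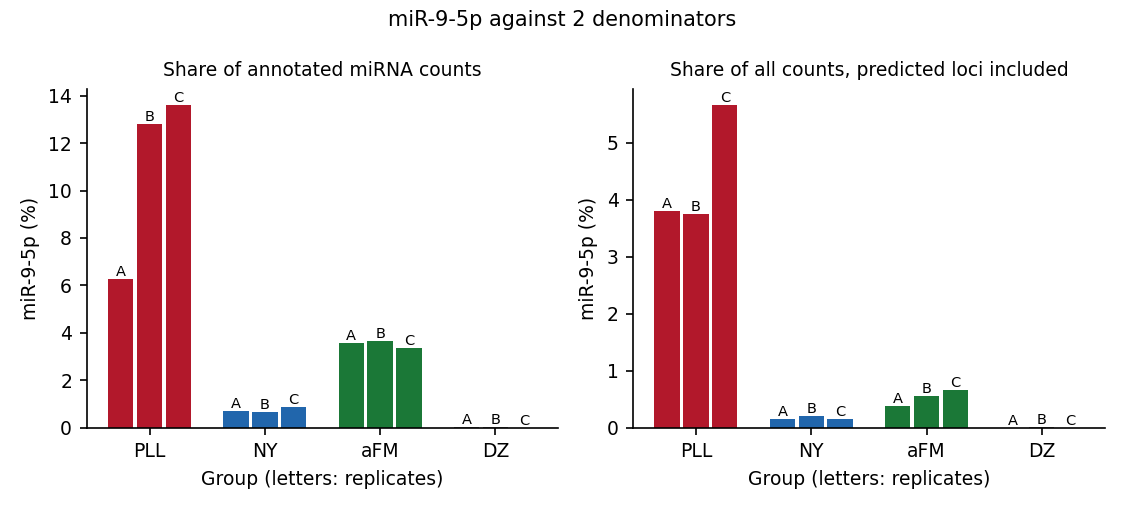
miR-9-5p as a percent of annotated miRNA counts (left) and of all counts with predicted loci (right), 1 bar per library, letters for replicates. PLL libraries reach 6.25% to 13.6% on the left and 3.75% to 5.66% on the right, and DZ bars are barely above 0 on both.

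The other arm of the hairpin was almost absent. miR-9-3p, which in human neurons acts with miR-9-5p on the REST and CoREST repressors, had 2 counts in all, both in NY replicate C. Of the reads on either arm it made up 2 of 15692, or 0.0127% (95% exact binomial interval 0.00154% to 0.0460%). In PLL it was 0 of 12201, which allows a share of up to 0.0246%. In NY it was 2 of 695, or 0.288% (0.0349% to 1.04%). In aFM it was 0 of 2779, which allows up to 0.108%, and in DZ 0 of 17, which allows up to 17.6%. These bounds reflect counting error alone, because amplified reads that carry no molecular identifier need not stand for separate molecules.

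A near-absent second arm was shared by other abundant miRNAs of the table. Among 76 hairpins with named arms and at least 100 counts, the less abundant arm took a median of 0.698% in those other than miR-9, and 21 of them lay below miR-9, of which 20 had 0 counts on that arm. Among the 11 other hairpins with at least 5000 counts the share ran from 0% to 13.5%, with a median of 0.155%. let-7i, with 0 of 17977, and miR-21a, with 2 of 33577, lay below miR-9, and miR-99a followed above it with 2 of 10191. miR-486a and miR-486b in this comparison are the same reads under both names.

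**Figure D3:**
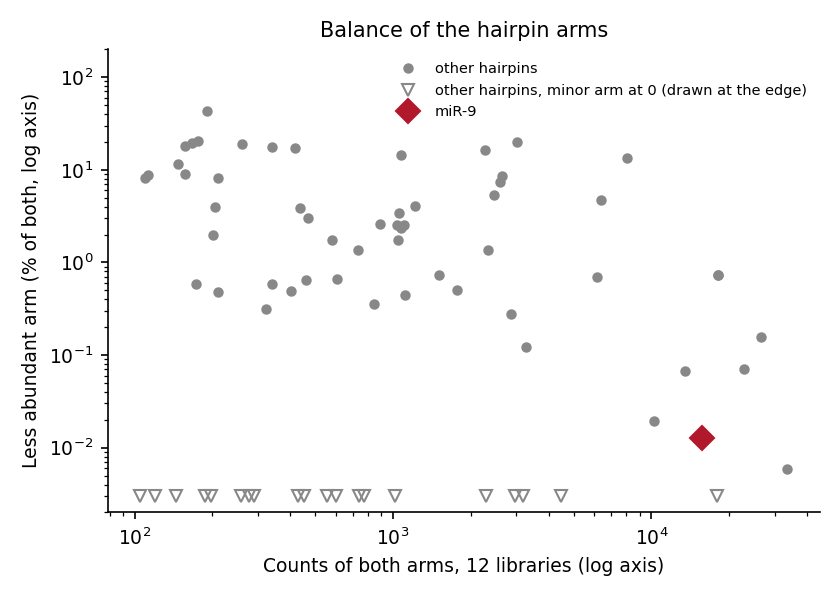
Share of the less abundant arm against the counts of both arms over 12 libraries, both axes logarithmic, 1 symbol per hairpin. miR-9 (diamond) lies at 0.0127%, near miR-99a and miR-21a, and open triangles at the lower edge are the 20 hairpins with 0 counts on 1 arm.

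miR-124-3p, the most neuron-restricted of the members, was at the edge of detection. It had 0, 6 and 4 counts in PLL libraries A, B and C, 1, 1 and 0 in NY, 4, 6 and 2 in aFM, and 0, 0 and 0 in DZ. Its counts thus lay mostly in aFM and in PLL replicates B and C, with none in PLL replicate A, the library with most annotated counts. Pooled over a group, 10 counts in PLL were 80.4 CPM before TMM scaling (95% exact Poisson interval 38.5 to 148), 2 in NY were 21.4 (2.59 to 77.3) and 12 in aFM were 152 (78.4 to 265). In DZ, 0 counts allow up to 49.5 CPM. Pooled miR-124-3p stood 3.07-fold above that DZ limit of 3 counts over the group in aFM and 1.63-fold above it in PLL. These folds are no lower bounds, because both counting intervals allow smaller ones, and that of PLL reaches below the limit. NY and DZ could not be told apart at this depth. In PLL, where miR-9-5p was highest, miR-124-3p was lower than in aFM per annotated count, with overlapping intervals. Over all counts, predicted loci included, the means lay the other way, with libraries overlapping. They were 0.0036% ± 0.0031% in PLL and 0.0022% ± 0.0011% in aFM (SD, n = 3). The passenger arm miR-124-5p had 0 counts in every library.

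miR-128-3p was present in every library and, relative to annotated counts, varied little. In PLL it had 108, 90 and 82 counts in replicates A, B and C, or 2446, 2260 and 2609 CPM. In NY it had 94, 81 and 86 counts, or 3116, 2514 and 2860 CPM. In aFM it had 106, 82 and 106 counts, or 4470.1, 3015 and 3203 CPM. In DZ it had 46, 32 and 58 counts, or 2805, 1821 and 2198 CPM. In CPM, aFM was highest on average and overlapped with NY, and PLL, NY and DZ overlapped with each other. Over all counts, predicted loci included, aFM overlapped with DZ as well.

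miR-128-3p averaged 2438 ± 174 CPM in PLL, 2829.9 ± 302 in NY, 3563 ± 791 in aFM and 2274 ± 496 in DZ (SD, n = 3). From low to high the order was DZ, PLL, NY, aFM, and neighbours in it differed by less than their SDs added together. The fitted log2 fold change against DZ was 0.10 ± 0.26 (SE) for PLL, 0.32 ± 0.26 for NY and 0.65 ± 0.26 for aFM, and PLL against aFM stood at -0.55 ± 0.25. The signs of PLL against aFM, PLL against NY and NY against aFM depended on the scaling. Those of NY and aFM against DZ stayed positive under every alternative. Over all counts, PLL held the most miR-128-3p, at 0.108%, 0.0744% and 0.119%, against 0.0495%, 0.0478% and 0.0713% in aFM, and with predicted loci in the fit PLL against aFM had a log2 fold change of 1.37, below the median annotated miRNA at 2.13. In the same fit PLL against DZ had 1.64 ± 0.49, where the median stood at 1.73, so the value of 0.10 depends on the scaling as well. PLL against NY had 1.09 and NY against aFM 0.28, against -0.21 ± 0.25 and -0.33 ± 0.25 on annotated counts. The ratio of highest to lowest group mean was 1.57 for miR-128-3p, which put it at place 106 among the tested miRNAs. Its 5p arms, miR-128-1-5p and miR-128-2-5p, had 0 counts.

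Of the miRNAs whose seed overlaps that of miR-128-3p by 6 bases, miR-27b-3p and miR-27a-3p were more abundant than miR-128-3p, and miR-216a-3p had 0 counts. miR-27b-3p, a vascular and adipogenic regulator in mouse, had 53713, 10775 and 9004 CPM in PLL replicates A, B and C, and averaged 12639.9 ± 1976 in NY, 12469 ± 1655 in aFM and 13920.2 ± 2566 in DZ (SD, n = 3). miR-27a-3p had 14560.5, 4420.4 and 4613 CPM in PLL and averaged 5579 ± 352 in NY, 5770.1 ± 1357 in aFM and 5753 ± 559 in DZ. PLL replicate A stood far above the other libraries for both, and replicates B and C of PLL lay at or near the lower end of the remaining libraries.

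miR-9-5p differed between groups far more than miR-128-3p, also within a library. Per count of miR-128-3p there were 35.0, 50.4 and 47.4 counts of miR-9-5p in PLL, 2.29, 2.85 and 2.87 in NY, 7.71, 11.8 and 9.36 in aFM, and 0.152, 0.281 and 0.0172 in DZ. The ratio averaged 44.3 ± 8.15 in PLL, 2.67 ± 0.332 in NY, 9.63 ± 2.07 in aFM and 0.15 ± 0.132 in DZ (SD, n = 3). miR-128-3p outnumbered miR-9-5p in all DZ libraries and was outnumbered in all others. The ratio compares reads of molecules of similar length within a library and does not depend on how libraries are scaled. Ligation and amplification bias between sequences was not measured.

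Profiles were compared by the root mean square difference of log2(CPM + 10) over the 12 libraries, each miRNA centred on its own mean. On this scale a flat profile lies 3.44 from miR-9-5p, and the median tested miRNA lay at 3.46. The nearest was miR-409-3p, of the imprinted Dlk1-Dio3 cluster, at 1.98. It had 14, 15 and 18 counts in PLL, 5, 8 and 12 in NY, 29, 37 and 31 in aFM and 0, 3 and 0 in DZ, so that it too was near 0 in DZ, but with aFM above PLL.

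The next were miR-126a-3p, an endothelial miRNA within Egfl7, at 2.75, miR-378c at 2.75, miR-342-5p, within Evl, at 2.94, and miR-127-3p, also of the Dlk1-Dio3 cluster, at 2.95. miR-126a-3p averaged 1966 ± 300 CPM in PLL, 575 ± 259 in NY, 4809 ± 269 in aFM and 791 ± 563 in DZ (SD, n = 3). miR-127-3p averaged 1075 ± 709 CPM in PLL, 796 ± 359 in NY, 2036 ± 402 in aFM and 324 ± 305 in DZ. In all 5 the highest group mean was that of aFM. With a pseudocount of 1 or of 100 in place of 10, 4 of the 5 remained nearest. miR-128-3p lay at 3.34, place 42 in order of likeness.

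**Figure D4:**
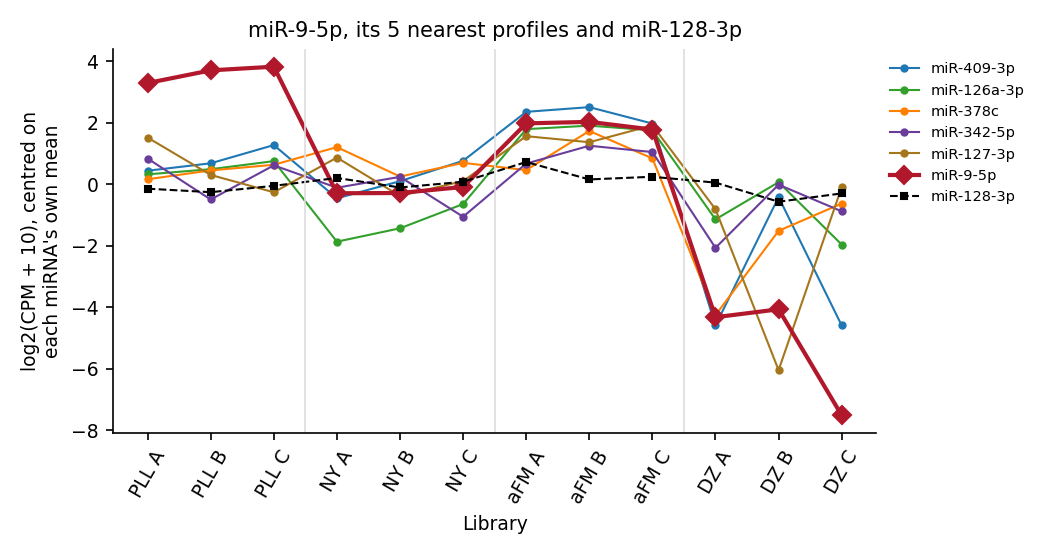
Centred log2(CPM + 10) in 12 libraries for miR-9-5p (thick line), the 5 miRNAs nearest to it and miR-128-3p (dashed). The 5 lie low in some or all DZ libraries and highest on average in aFM, whereas miR-9-5p is highest in PLL and miR-128-3p is nearly flat.

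Other miRNAs known from neurons gave no call with edgeR on the annotated counts of all 12 libraries. Only miR-328-3p was called with DESeq2 and in the other alternative fits that gave a call. A list of 25 was set up, among them miR-132-3p, which is induced by neuronal activity, miR-137-3p, miR-138-5p, miR-153-3p and miR-219a-5p, an oligodendrocyte miRNA. Of these, 14 had a count in some library and 5 passed the filter on low counts, namely miR-129-5p, miR-7a-5p, miR-328-3p and the sensory miRNAs miR-182-5p and miR-183-5p. Under edgeR's quasi-likelihood test, with adjustment over all tested miRNAs, 0 of 5 were called in each of the 6 comparisons. Over all tested miRNAs the share called was 18.9% in aFM against DZ, 0.758% in NY against DZ, 3.79% in PLL against DZ, 3.79% in NY against aFM, 9.09% in PLL against aFM and 6.82% in PLL against NY. In NY against DZ that share is 1 miRNA, miR-9-5p itself, by whose counts the members were chosen, so nothing is read from it. At an unadjusted p under 0.05 there was 1 of 5 in aFM against DZ and 1 in NY against aFM, both miR-328-3p, and 0 in the other comparisons. DESeq2 called 1, miR-328-3p in NY against aFM, and 0 elsewhere.

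miR-328-3p had 1155, 804 and 1527 CPM in PLL, 1392, 2669 and 1463 in NY, 548, 625 and 876 in aFM, and 2195, 1593 and 1023 in DZ. Its log2 fold change was -1.20 ± 0.42 for aFM against DZ (edgeR adjusted p = 0.0600) and 1.42 ± 0.41 for NY against aFM (edgeR adjusted p = 0.0630). Neither passed the threshold. In PLL, where miR-9-5p was highest, the libraries of miR-328-3p overlapped with those of DZ, with a log2 fold change of -0.46 ± 0.40 (SE). The median log2 fold change of the 5 against DZ was -0.89 for PLL, -0.33 for NY and -0.63 for aFM, beside 0.22 for PLL, 0.022 for NY and -0.14 for aFM over all tested miRNAs. miR-7a-5p, known from neurons and endocrine cells, averaged 883 ± 416 CPM in PLL, 1292 ± 291 in NY, 1053 ± 50.9 in aFM and 1643 ± 1994 in DZ (SD, n = 3).

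Among the 20 list entries that did not pass the filter, miR-218-5p, a motor neuron miRNA, had 13 counts in PLL, 8 in NY, 30 in aFM and 5 in DZ. miR-134-5p, a dendritic miRNA of the Dlk1-Dio3 cluster, had 18 counts in PLL, 2 in NY, 0 in aFM and 0 in DZ. miR-132-3p had 4 counts in PLL, 14 in NY, 8 in aFM and 8 in DZ. miR-137-3p, miR-138-5p, miR-153-3p and miR-219a-5p had 0 counts in all libraries.

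Summed over the 8 neural markers of the marker panel, which include the 4 members, these miRNAs took 6.43% to 13.9% of annotated counts in PLL, 0.891% to 1.19% in NY, 3.72% to 4.05% in aFM and 0.233% to 0.290% in DZ. Without miR-9-5p the sum was 0.179% to 0.301% in PLL, 0.234% to 0.315% in NY, 0.331% to 0.480% in aFM and 0.182% to 0.251% in DZ. The sum therefore followed miR-9-5p. The remainder, nearly all of it miR-128-3p, overlapped in PLL, NY and DZ and was highest in aFM on annotated counts.

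Since miR-9 also answers inflammatory signals in human myeloid cells, 9 further miRNAs known from Toll-like receptor or NF-κB responses were examined, of which miR-132-3p is also in the neural list. Of these, 7 had a count and 4 were tested, miR-146a-5p and miR-146b-5p, which restrain NF-κB signalling, miR-21a-5p and miR-125a-5p. In aFM against DZ 2 of 4 were called, both lower, where 9.85% of all tested miRNAs were lower. miR-146a-5p fell in aFM, at 253, 368 and 967 CPM in aFM against 1158, 2902 and 2463 CPM in DZ (log2 fold change -2.0 ± 0.50, edgeR adjusted p = 0.0311). miR-21a-5p, widely induced in inflammation, had 82087, 85319 and 98247 CPM in PLL, 120198, 130149.7 and 105855 in NY, 65786, 78385 and 68443 in aFM, and 86699.7, 117442 and 114394 in DZ. It fell in aFM relative to DZ (-0.58 ± 0.16, edgeR adjusted p = 0.0415) and was higher in NY than in aFM (0.74 ± 0.16, edgeR adjusted p = 0.0270), where 0.758% of all tested miRNAs were higher. The call of NY against aFM was lost under every other scaling of the libraries that was tried, and the 2 calls of aFM against DZ became 0 with library totals in place of TMM. These 2 differed in how often they were lost. Over 21 alternatives the call of miR-146a-5p was lost in 7 and that of miR-21a-5p in 17.

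In PLL against aFM and in PLL against NY 1 of 4 was called, miR-146b-5p. It had 2695, 1281 and 3277 CPM in PLL, 398, 714 and 898 in NY, 717, 515 and 453 in aFM, and 305, 1081 and 871 in DZ. The log2 fold change was 2.10 ± 0.50 against aFM (edgeR adjusted p = 0.0205), where 6.06% of all tested miRNAs were higher, and 1.84 ± 0.49 against NY (edgeR adjusted p = 0.0404), where 3.03% were higher. Against DZ it was 1.66 ± 0.50 and did not pass (edgeR adjusted p = 0.0647). In PLL against DZ and NY against DZ, 0 of 4 were called, with 1 and 2 at an unadjusted p under 0.05 and 1 and 0 called by DESeq2. The median log2 fold change of the 4 was -0.087 in PLL against DZ, -0.0095 in NY against DZ and -0.51 in aFM against DZ. These calls rest on few libraries: each of the 5 was lost when any of 4 to 9 of the 12 libraries was left out singly, with edgeR adjusted p up to 0.216.

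**Figure D5:**
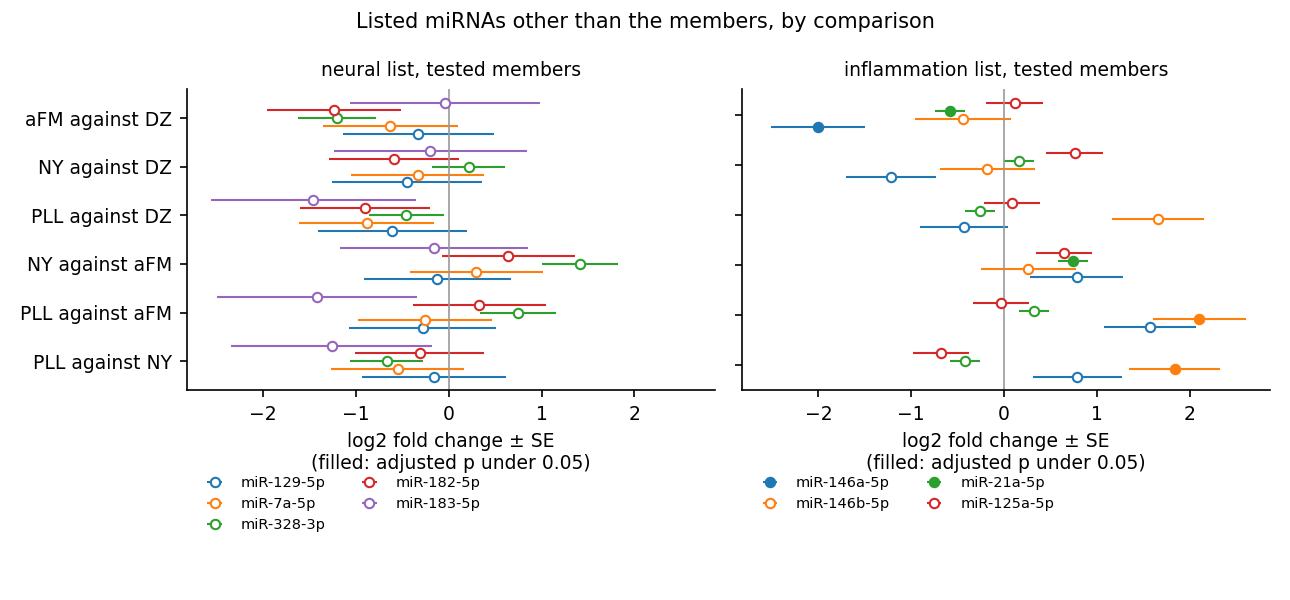
Fitted log2 fold changes ± SE of the 5 tested neural and 4 tested inflammation miRNAs other than miR-9, miR-124 and miR-128, in 6 comparisons. Filled symbols have an edgeR adjusted p under 0.05: there are 0 on the left and 5 on the right.

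Markers of other cell types were set beside the miR-9-5p levels. Leukocyte markers, 5 in number and all with a count in some library, summed to 0.170% to 0.449% of annotated counts in PLL, 0.234% to 0.355% in NY, 0.205% to 0.271% in aFM and 0.333% to 0.347% in DZ. The sum in PLL overlapped with that in every other group, and single markers went in both directions. The myeloid miRNA miR-223-3p had 0, 21 and 19 counts in PLL, 7 counts in all NY libraries together, 4 in aFM and 6 in DZ. Pooled by group, miR-155-5p had 23 counts in PLL, 13 in NY, 15 in aFM and 3 in DZ. miR-142a-5p had a log2 fold change of -0.45 ± 0.27 (SE) for PLL against DZ. In PLL replicate A, where miR-223-3p was at 0, the sum over all 5 leukocyte markers was not 0. The endothelial pair miR-126a-3p and miR-126a-5p took 0.124% to 0.255% in PLL, 0.0365% to 0.0920% in NY, 0.502% to 0.527% in aFM and 0.0525% to 0.142% in DZ. Mesenchymal markers, with all 6 detected in each group, took 5.48% to 11.1% in PLL, 8.55% to 10.5% in NY, 8.02% to 9.71% in aFM and 9.04% to 9.66% in DZ, and erythroid markers took 3.43% to 7.6% in PLL, 6.76% to 11.9% in NY, 5.26% to 8.37% in aFM and 6.54% to 12.3% in DZ. Muscle markers, 3 in number, took 0.0311% to 0.0397% in PLL, 0.166% to 0.228% in NY, 0.0226% to 0.0473% in aFM and 0% to 0.0848% in DZ, so they were highest in NY. The liver miRNA miR-122-5p took 0.304% to 0.860% in PLL, 0.222% to 0.326% in NY, 1.51% to 1.61% in aFM and 0.169% to 4.06% in DZ, where the libraries differed most. Epithelial markers, 7 in number, took 0.0595% to 0.0763% in PLL, 0.0513% to 0.0830% in NY, 0.0306% to 0.101% in aFM and 0.0656% to 0.222% in DZ. The part of any other cell type in the miR-9-5p levels was not tested.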

How the data were processed

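Small RNA was counted in 12 vesicle libraries, 3 per group, grouped by their titles. The authors deposited whole-number counts per table entry without normalization, as the values show. FastQC, STAR, StringTie, DESeq2 and the build mm39 are named, without roles, per the submitters' processing notes, and which program called miRNAs is not stated there. Of 3509 entries, 1978 were annotated miRNAs. The other 1531, predicted loci with 39.3% to 89.7% of a library's counts, entered neither library sizes nor tests, except in 1 alternative fit. Totals ran from 68647 to 214303 counts and annotated counts from 17607 to 60436. A count of 0 allows 3 counts, or 67.9 to 183 CPM.

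edgeR 4.0.16 (limma 3.58.1, R 4.3.3) fitted all 12 libraries, with filterByExpr defaults (132 miRNAs), TMM factors on annotated totals, a term per group and a two-sided quasi-likelihood test with Benjamini-Hochberg adjustment at 0.05. The SE is the log2 fold change over the square root of F. Members and lists were chosen with earlier results of these data known. Named miRNAs are the members, their arms and seed relatives, called list members or else the most counted, and the 5 nearest profiles; other list miRNAs given with counts were chosen after their values were seen. Scripts were tested on simulated data. No replicate pair agreed within sampling noise (chi-square test). Same-letter deviations correlated above 0.1 for every letter between NY and DZ (0.164 to 0.303) and in no other comparison; no label states what a letter marks. Sequences are from RefSeq, GRCm38.p6, which is not the build in the processing notes; no coordinates were converted. Alternatives were other scaling, library sizes, filter, DESeq2, 2 groups per fit, each library left out and a replicate block.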

Additional observations from a re-analysis of the deposited data

Results flagged for a closer look

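Table entries outside the annotated miRNAs carried most of the counts. Predicted loci took a median of 79.0% of a library's counts over the 12 libraries. They entered the comparisons above only in the shares taken over all counts and in the alternative fit that included them.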

How the results depend on the processing

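The log2 fold change of miR-9-5p kept its sign under all 21 alternatives in each comparison. Leaving out each library in turn gave 7.72 to 9.0 for PLL against DZ, 3.93 to 5.19 for NY against DZ, 6.16 to 7.36 for aFM against DZ, -2.25 to -2.11 for NY against aFM, 1.42 to 1.77 for PLL against aFM and 3.65 to 3.99 for PLL against NY. Of these alternative values over all 6 comparisons, 3 moved by more than the spread between replicates, all with predicted loci in the fit and in its library sizes: -1.56 for NY against aFM, 3.51 for PLL against aFM and 5.08 for PLL against NY, where the median annotated miRNA moved to 0.75, 2.13 and 1.49. In the comparisons with DZ, whose replicate C held 1 count, that spread was wide, at 1.92 to 1.94 log2 units. Few shifts could exceed it there. PLL against DZ, at 8.45 in the main fit and 10.07 with predicted loci, did not. With the replicate letter as a block the values were 8.49, 4.65 and 6.79 for PLL, NY and aFM against DZ. In NY against DZ, whose letters deviated together, both lists had 0 calls with and without the block.

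The neural list had 0 calls, but 1 in NY against aFM with predicted loci included, with only the 2 groups fitted and with DESeq2, and 1 in PLL against aFM with predicted loci included. Calls of the inflammation list depended on more settings. In aFM against DZ the 2 calls became 1 with RLE factors, library sizes without miR-9-5p, no filter, the replicate block or DESeq2, and 0 with library totals, predicted loci or only the 2 groups, and 0 to 2 without 1 library. In PLL against DZ the 0 calls became 2 with predicted loci and 1 with DESeq2, and 0 to 1 without 1 library. In NY against aFM the 1 call became 0 with RLE or upper quartile factors, library totals, predicted loci, library sizes without miR-9-5p, no filter, the replicate block or DESeq2, and 0 to 1 without 1 library. In PLL against aFM the 1 call became 4 with predicted loci and 2 with the block, and 0 to 1 without 1 library. In PLL against NY the 1 call became 0 with the block or only the 2 groups, and 0 to 1 without 1 library. The cause was not tested.

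Over all tested miRNAs, the calls and their range over all alternatives other than leaving out a library were 5 and 1 to 58 in PLL against DZ, 1 and 1 to 7 in NY against DZ, 25 and 7 to 28 in aFM against DZ, 5 and 2 to 29 in NY against aFM, 12 and 8 to 84 in PLL against aFM, and 9 and 8 to 34 in PLL against NY. Without 1 library they ran over 4 to 17, 1 to 2, 5 to 26, 1 to 12, 4 to 20 and 5 to 11 in the same order. Depth limits miR-124-3p and miR-9-3p most, with at most 6 and 2 counts in a library.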

Other observations

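Among the predicted loci with at least 100 counts, the profile nearest to miR-9-5p on the same measure was that of chr16_32169, at 1.62, a locus singled out after its values were seen. It had 394, 1009 and 420 counts in PLL, 79 in the lowest of the NY libraries, 2914, 2244 and 1552 in aFM, and 1, 3 and 0 in DZ, so it was near 0 in DZ and highest in aFM.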
